A study of Triticum polonicum with 8 samples.

Results

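The 200 genes described here carry a D chromosome code in their bread wheat identifier and had the highest mean level of all genes with such a code in roots of dwarf Polish wheat (Triticum polonicum L.). They were taken as the 200 highest of 35422 D-coded genes by mean CPM, a gene's read count scaled to a fixed library total, over the 8 libraries of the series. The whole count table held 124856 genes, and 18425 of the D-coded genes had a read in some library. The mean level over all 8 libraries chose the members, so their levels are given as a description and not as a result.

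Bread wheat carries the related A, B and D subgenomes, and each of the chromosome groups numbered alike in them is a homoeologous group whose genes are often close copies of each other. Polish wheat is a tetraploid with the A and B subgenomes and no D subgenome. A read from an A or B copy can align to a D model of a bread wheat reference where that model is the closest sequence it finds, or is one of several close copies. A level on a D-coded identifier is therefore the level of reads placed on that model, and near-identical copies make each such level uncertain. The deposited values do not say which copy a read came from.

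Cadmium is a toxic metal that enters roots partly through transporters of essential metals. Zinc is an essential nutrient that shares some of those routes and is itself toxic in excess, and calcium and potassium are major mineral nutrients.

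Every library was made from roots of plants 4 weeks old that had been treated for 1 week, and each of the 8 treatments had 1 library column. The Ca/K-supplied plants received 8 mM Ca(NO3)2 and 10 mM KNO3, and the libraries are N2_Cd_Zn (80 µM Cd with 500 µM added Zn), N2_Cd (80 µM Cd), N2_Zn (500 µM added Zn) and N2 (no added metal). The plants without that supplement received 4 mM Ca(NO3)2 and 5 mM KNO3, and the libraries N0_Cd_Zn, N0_Cd, N0_Zn and N0 carry the same metal treatments. Both salts are nitrates, so the supplement raised nitrate too, and calcium, potassium and nitrate cannot be told apart in this design. Ca/K below stands for the whole supplement. All plants had the basal zinc of the nutrient solution. The labels speak of replicate samples of each treatment, but the sources used here do not say how they were joined into 1 column, so the spread between plants of 1 treatment is unknown. Library totals were 20000875 to 25241789 counts.

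The files pair no identifier with a gene name, so members are given by identifier and chromosome arm (5DL is the long arm of chromosome 5D) and no function is assigned to any of them.

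The 200 members had mean levels of 15.8 to 562 CPM with a median of 27.5 CPM. Of them, 17 averaged 100 CPM or more, 46 averaged 50 CPM or more and 59 averaged under 20 CPM. All 200 had reads in all 8 libraries, and 159 had 5 CPM or more in every library. The levels were far below those of the 200 highest genes chosen in the same way from the other subgenome codes, which began at 218 CPM for A-coded and 209 CPM for B-coded genes.

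The border of the 200 fell in a dense run of levels. The last members by rank averaged 15.86, 15.82 and 15.81 CPM, and the first D-coded genes outside the 200 averaged 15.81, 15.80 and 15.73 CPM. Ranking by median CPM kept 179 of the 200 and ranking by mean FPKM, which divides by gene length, kept 148. Leaving out 1 library at a time kept at least 192.

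The highest mean CPM belonged to TRIAE_CS42_6DL_TGACv1_527736_AA1708060, with 513, 628, 780 and 603 CPM in N2_Cd_Zn, N2_Cd, N2_Zn and N2 and 555, 531, 379 and 506 CPM in N0_Cd_Zn, N0_Cd, N0_Zn and N0. It had its highest level in N2_Zn and its lowest in N0_Zn, and its levels stayed within 2.06-fold of each other. TRIAE_CS42_1DS_TGACv1_080166_AA0241970, the second by CPM, had 138, 253, 107 and 1089 CPM in N2_Cd_Zn, N2_Cd, N2_Zn and N2 and 1376, 117, 105 and 669.8 CPM in N0_Cd_Zn, N0_Cd, N0_Zn and N0. It was high in both libraries without metal and in N0_Cd_Zn, and low in the others. Per length it stood above all other members, with a mean of 764 FPKM over its 631 bp.

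The members that came next by CPM, on 2DL, 2DS, 1DL, 7DL and 3DL, had means of 139 to 349.9 CPM. TRIAE_CS42_2DL_TGACv1_159228_AA0534890 averaged 349.9 CPM, TRIAE_CS42_2DS_TGACv1_178822_AA0601390 averaged 344 CPM and TRIAE_CS42_2DL_TGACv1_158089_AA0508690 averaged 333 CPM. The next were TRIAE_CS42_1DL_TGACv1_062860_AA0221120 at 182 CPM, TRIAE_CS42_7DL_TGACv1_608981_AA2011390 at 179 CPM, TRIAE_CS42_3DL_TGACv1_249219_AA0841920 at 155 CPM and TRIAE_CS42_7DL_TGACv1_604149_AA1994470 at 139 CPM. The highest of the 8 levels of each of these members was 1.33 to 3.05 times the lowest. TRIAE_CS42_5DL_TGACv1_433430_AA1412970, the tenth at 124 CPM, ranged over 37.4-fold. The 10 highest members held 30.01% of all CPM on the 200, and the 50 highest held 61.1%.

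**Figure D1:**
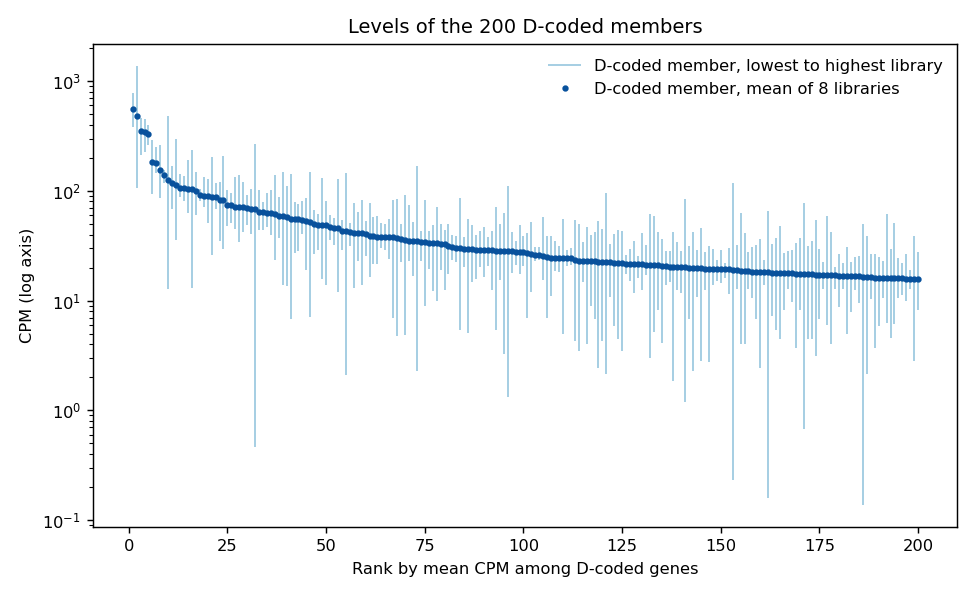
Level of each of the 200 members (CPM, log axis) against its rank among D-coded genes; points are means over 8 libraries and lines run from the lowest to the highest library. Means fall to 15.8 CPM at rank 200, and the longest lines belong to members whose lowest library held under 1 CPM.

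The members held a small and steady part of each library. Their share of counts was 0.888% in N2_Cd_Zn (95% Wilson interval 0.884 to 0.893%), 0.962% in N2_Cd, 0.971% in N2_Zn and 0.998% in N2. In the N0 libraries it was 1.00% in N0_Cd_Zn (0.997 to 1.01%), 0.889% in N0_Cd, 0.946% in N0_Zn and 0.939% in N0. The intervals cover counting error only. The shares did not follow Ca/K, Cd or Zn: the lowest 2 came from N2_Cd_Zn and N0_Cd, and the highest 2 from N0_Cd_Zn and N2.

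All other D-coded genes together held 1.28% of counts in N2_Cd and 0.967 to 1.20% in the other 7 libraries. N2_Cd also had the most D-coded genes with a read, 13525 against 10014 to 11647 in the others. In it, 77 D-coded genes had 10 or more reads that had none in any other library, while every member had reads in all 8. The highest of the 77 had 100 CPM there and ranked 259. A choice by the mean over 8 libraries leaves little room for such genes, so the contrast with the members is a description. The number of such genes in the whole table was not counted. The members' share of D-coded counts was lowest in N2_Cd, at 43.0%, and highest in N0, at 49.3%.

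Members lay on all 14 D chromosome arms. The long arm of chromosome 5D held 40 of them, 20% of the members, against 12.4% of all D-coded genes and 14.5% of D-coded genes with a mean of 1 CPM or more. The arms 2DL and 2DS held 26 and 21, while 4DS and 5DS held 3 each. The 200 came from 199 scaffolds, and the pair on 1 scaffold, TRIAE_CS42_1DL_TGACv1_064128_AA0232730 and TRIAE_CS42_1DL_TGACv1_064128_AA0232720, differed in their profiles: the first was highest in N0_Zn at 209 CPM and the second in N2_Cd at 79.6 CPM. Gene lengths ran from 631 to 6895 bp with a median of 1965 bp.

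How far a member moved over the 8 libraries varied widely. The highest level was under 2 times the lowest in 45 members, 2 to 4 times in 71 and 4 times or more in 84, which is 42% of the members. Of these 84 members, 45 swung 10-fold or more, 22.5% of the members. Among all genes with a mean of 5 CPM or more, 35.6% swung 4-fold or more and 16.5% swung 10-fold or more. The A-coded and B-coded top 200 held 81 and 79 genes with a swing of 4-fold or more and 32 each with 10-fold or more. Since a gene can enter the 200 through 1 high library, these counts are a description.

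The steadiest member, TRIAE_CS42_1DL_TGACv1_062224_AA0210810, had 96.4, 105, 84.9 and 93.5 CPM in N2_Cd_Zn, N2_Cd, N2_Zn and N2 and 80.4, 90.2, 91.8 and 88.3 CPM in N0_Cd_Zn, N0_Cd, N0_Zn and N0. The standard deviation (SD) of its log2(CPM + 0.5) over the 8 libraries was 0.12. TRIAE_CS42_5DL_TGACv1_435042_AA1445210 and TRIAE_CS42_7DS_TGACv1_622603_AA2042410 were next, each with an SD of 0.13. The median SD over the 200 was 0.56, against 0.54 for the A-coded top 200 and 0.53 for the B-coded top 200. It was 0.48 for all genes with a mean of 5 CPM or more. A-coded and B-coded genes with at least the mean CPM of the lowest member had 0.47 and 0.46.

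At the other end, TRIAE_CS42_6DL_TGACv1_527675_AA1707210 had 97.0, 51.4, 61.5 and 269 CPM in N2_Cd_Zn, N2_Cd, N2_Zn and N2 and 0.465, 16.1, 46.9 and 5.33 CPM in N0_Cd_Zn, N0_Cd, N0_Zn and N0. All 4 N2 libraries lay above all 4 N0 libraries, and N0_Cd_Zn held only 10 reads of it. TRIAE_CS42_1DS_TGACv1_080112_AA0239670 had 4.35, 26.8, 1.56 and 1.68 CPM in N2_Cd_Zn, N2_Cd, N2_Zn and N2 and 0.232, 118, 0.357 and 0.331 CPM in N0_Cd_Zn, N0_Cd, N0_Zn and N0. It was high in both libraries with Cd and no added Zn, and near 0 in N0_Cd_Zn, N0_Zn and N0. The 118 CPM in N0_Cd made up most of the mean by which it was chosen.

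TRIAE_CS42_4DL_TGACv1_343786_AA1139630 showed another pattern, with 0.60, 2.07, 1.05 and 36.5 CPM in N2_Cd_Zn, N2_Cd, N2_Zn and N2 and 65.4, 0.680, 0.158 and 37.8 CPM in N0_Cd_Zn, N0_Cd, N0_Zn and N0. Its levels were high without metal at both Ca/K levels and low in every metal library except N0_Cd_Zn, where it was highest. TRIAE_CS42_6DS_TGACv1_545065_AA1749890 had 7.0, 8.37, 0.137 and 38.5 CPM in N2_Cd_Zn, N2_Cd, N2_Zn and N2 and 2.37, 19.96, 49.7 and 5.91 CPM in N0_Cd_Zn, N0_Cd, N0_Zn and N0. It was highest in N0_Zn and lowest in N2_Zn, where 3 reads were counted.

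Other members stood out in 1 library. The largest ratio of the highest to the second library was 4.65, in TRIAE_CS42_5DL_TGACv1_434162_AA1430760, which had 61.7 CPM in N2_Cd and 6.27 to 13.2 CPM elsewhere. TRIAE_CS42_3DS_TGACv1_271521_AA0900950 had 168 CPM in N2_Zn and 2.30 to 38.3 CPM in the others. In all, 13 members were 2-fold or more above their second library in 1 library, and 29 were 2-fold or more below their second lowest. A high level in 1 library raises the mean by which members were chosen. TRIAE_CS42_5DL_TGACv1_434162_AA1430760 averaged 16.0 CPM and would fall below the border for members without N2_Cd. Its ratio and the count of 13 are therefore a description, and such genes were not counted in the whole table.

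Many members had their highest or lowest level in N0_Cd_Zn or N0_Zn, as many genes of the whole table did. By CPM, 56 of the 200, or 28%, were highest in N0_Cd_Zn, against 19.1% of all genes with a mean of 5 CPM or more and 31.5% and 31% of the A-coded and B-coded top 200. Members highest in N0_Zn numbered 35, or 17.5% against 15.6% of all such genes. Members lowest in N0_Zn numbered 69, or 34.5% against 30.1%, and the A-coded and B-coded top 200 stood at 38.5% each. Members lowest in N0_Cd_Zn numbered 36, or 18% against 19.1%. The shares other than the first lay near those of all genes. With CPM scaled by TMM (trimmed mean of M values, edgeR's correction for differing composition of libraries), 47 members (23.5%) were highest in N0_Cd_Zn and 50 (25%) in N0_Zn, against 16.7% and 26.1% of all such genes. Then 47 (23.5%) were lowest in N0_Zn and 36 (18%) in N0_Cd_Zn, against 21.6% and 21.9%. Members highest in N0_Cd_Zn and lowest in N0_Zn numbered 30 by CPM, or 15%, against 9.62% of all such genes. After TMM scaling, an alternative added after the data were seen, they numbered 19, or 9.5%, against 7.23% of all such genes. The A-coded and B-coded top 200 held 51 and 45 such genes by CPM, more than the D-coded members.

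**Figure D2:**
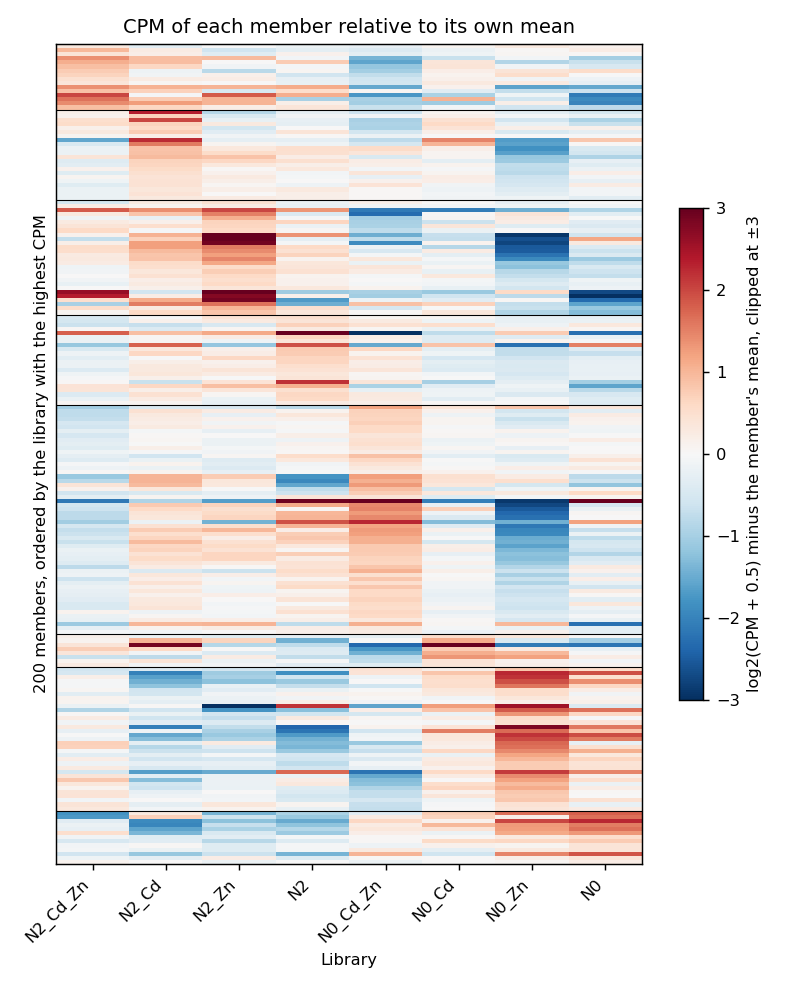
Each row is 1 of the 200 members and each column 1 library; colour gives log2(CPM + 0.5) minus the member's own mean over the 8 libraries, clipped at 3 either way. Rows are grouped by the library in which the member is highest, and the block of 56 members highest in N0_Cd_Zn is the largest.

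To ask whether a treatment moved members across the other conditions, edgeR's quasi-likelihood test was fitted to the counts of all 64580 genes that passed a low-count filter, with Ca/K, Cd and Zn as factors. All 200 members passed the filter. With 1 library per treatment, the spread comes from the interactions that the model leaves out, with 4 residual degrees of freedom, or 3 where an interaction was added. A call was an adjusted p (Benjamini-Hochberg over all genes) under 0.05.

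For Cd, 0 of 200 members were called, against 0% of all genes, and 2 members had an unadjusted p under 0.05, or 1%, against 2.97% of all genes. For Zn, 0 members were called, against 0% of all genes, and 4 had an unadjusted p under 0.05, against 1.97% of all genes. For Ca/K, 0 members were called, against 0.00155% of all genes, and 46 had an unadjusted p under 0.05, or 23%, against 16.4% of all genes. DESeq2's Wald test on the same genes called 0 members for Cd, against 0.449% of all genes, and 2 for Zn, against 0.245%. For Ca/K it called 31 members, 13 higher and 18 lower with the supplement, or 15.5% against 10.5% of all genes. Without N0_Cd_Zn, edgeR called 24 members for Ca/K, 3 higher and 21 lower, against 5.65% of all genes. The counts at an unadjusted p under 0.05 also rested on that library: leaving out 1 library at a time, they ran from 1 to 16 members for Cd, 4 to 42 for Zn and 29 to 85 for Ca/K. The highest of each came without N0_Cd_Zn, where 10.1%, 13.2% and 28.4% of all genes had such a p.

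The 2 metals together were asked about through their interaction, which compares the effect of one with and without the other. For Cd by Zn, edgeR called 0 members, against 0% of all genes, with 11 at an unadjusted p under 0.05 against 7.62% of all genes. DESeq2 called 5 members, against 2.31% of all genes. Without N2_Cd_Zn, edgeR called 8, 2 with a positive and 6 with a negative interaction, against 5.39% of all genes. For Ca/K by Cd, 0 members were called by edgeR and 0 by DESeq2, against 0% and 0.401% of all genes, and 13 had an unadjusted edgeR p under 0.05, against 3.85% of all genes. For Ca/K by Zn, 0 were called by either tool, against 0% and 0.204% of all genes, and 3 had an unadjusted edgeR p under 0.05, against 1.46% of all genes. Leaving out 1 library at a time, the unadjusted counts ran from 4 to 59 members for Cd by Zn, 6 to 73 for Ca/K by Cd and 0 to 53 for Ca/K by Zn. The highest came without N2_Cd_Zn, N0_Cd and N0_Zn in that order, where 27.2%, 25.9% and 21% of all genes had such a p.

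The member nearest to a call for Ca/K was TRIAE_CS42_5DL_TGACv1_433502_AA1414930, a gene of 1471 bp. It had 209.7, 155, 237 and 146 CPM in N2_Cd_Zn, N2_Cd, N2_Zn and N2 and 13.1, 13.6, 20.8 and 30.8 CPM in N0_Cd_Zn, N0_Cd, N0_Zn and N0. Each N2 library lay far above each N0 library, at every metal treatment. The fitted log2 fold change, N2 over N0, was 3.21 (SE 0.38) with an edgeR adjusted p of 0.0667, and the DESeq2 adjusted p was 1.98e-14.

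The member nearest to a call for Zn was TRIAE_CS42_1DS_TGACv1_081241_AA0259160, a gene of 819 bp. It had 5.85, 5.68, 4.28 and 2.42 CPM in the libraries with added Zn, N2_Cd_Zn, N2_Zn, N0_Cd_Zn and N0_Zn, and 47.0, 52.6, 24.7 and 38.8 CPM in N2_Cd, N2, N0_Cd and N0. The groups did not overlap, with or without Cd and at both Ca/K levels. The fitted log2 fold change, with over without added Zn, was -3.14 (SE 0.26) with an edgeR adjusted p of 0.191, and the DESeq2 adjusted p was 5.00e-23.

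For Cd no member came near a call. The lowest edgeR p was that of TRIAE_CS42_5DL_TGACv1_433779_AA1421890, at a fitted log2 fold change, with over without Cd, of 1.501 (SE 0.44). Its p was 0.0137 before adjustment and 1 after it.

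Matched pairs of single libraries were then compared by the log2 ratio of TMM-scaled CPM with a prior count of 2, over genes with 5 CPM or more in either library, and a 2-fold ratio was counted as apart. These comparisons have no replicate and no test. TMM scaling moves all ratios of a pair alike, and against plain library totals it shifted them by -0.27 in N0_Cd_Zn against N0_Zn, -0.25 in N2 against N0 and 0.20 in N2_Zn against N2 on the log2 scale, and by 0.19 or less either way in the other pairs.

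Cd was set against no Cd in 4 pairs. In N2_Cd against N2, 26 of 199 members were higher and 8 lower, against 12.8% and 7.41% of all genes, and on plain library totals 23 were higher and 12 lower. In N2_Cd_Zn against N2_Zn, 8 of 197 were higher and 32 lower, against 6.1% and 8.44% of all genes. Lower members were 16.2% there, close to the 15.9% of all D-coded genes compared, so this share was not particular to the 200. On log2(FPKM + 1) their number was 20, and on library totals 13 were higher and 25 lower. In N0_Cd against N0, 24 of 200 were higher and 14 lower, against 12.1% and 8.73% of all genes. In N0_Cd_Zn against N0_Zn, 37 members (18.9%) were higher and 53 (27.0%) lower, against 21.1% and 23.1% of all genes, but on library totals the balance turned, with 52 higher and 45 lower. No member was 2-fold apart in the same direction in all 4 pairs, out of 193 compared, against 0.114% of all genes higher and 0.00761% lower. By any amount, 3 members were higher and 3 lower in all 4 pairs, against 2.77% and 4.83% of all genes.

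The extremes of the Cd pairs were members already described. TRIAE_CS42_1DS_TGACv1_080112_AA0239670 was the highest in both pairs without added Zn, 348-fold higher in N0_Cd than in N0 (95% counting interval 176 to 807) and 18.1-fold higher in N2_Cd than in N2 (13.2 to 25.4). TRIAE_CS42_4DL_TGACv1_343786_AA1139630 was the lowest in the same pairs, 57.0-fold lower in N0_Cd than in N0 (35.4 to 98.2) and 15.5-fold lower in N2_Cd than in N2 (11.5 to 21.4). With added Zn, TRIAE_CS42_4DL_TGACv1_343786_AA1139630 went the other way at N0, at 341-fold higher in N0_Cd_Zn than in N0_Zn (133 to 1255), where N0_Zn held 4 reads. The mean of TRIAE_CS42_1DS_TGACv1_080112_AA0239670, 19.2 CPM, came mostly from 118 CPM in N0_Cd. TRIAE_CS42_4DL_TGACv1_343786_AA1139630 averaged 18.0 CPM with 65.4 CPM in N0_Cd_Zn. Without that library each mean would fall below the border for members. The 348-fold and 341-fold ratios thus use the values that chose these genes, and are a description.

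Zn was set against no added Zn in 4 pairs. In N2_Zn against N2, 30 members (15.2%) were higher and 8 (4.04%) lower, against 9.77% and 7.09% of all genes, and on library totals 22 were higher and 11 lower. In N2_Cd_Zn against N2_Cd, 17 of 199 were higher and 34 lower, against 8.16% and 13.3% of all genes. In N0_Zn against N0, 26 of 199 were higher and 22 lower, against 8.42% and 10.4% of all genes, while library totals gave 19 higher and 24 lower, and log2(FPKM + 1) gave 16 and 23. In N0_Cd_Zn against N0_Cd, 14 of 200 were higher and 34 lower, against 13.6% and 19.6% of all genes. Under TMM scaling, higher members were 15.2% and 13.1% in the pairs without Cd, above all genes but below the 16.7% and 14.9% of all D-coded genes compared. They were 7% in N0_Cd_Zn against N0_Cd, where all D-coded genes stood at 14.6%.

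Only TRIAE_CS42_1DS_TGACv1_081241_AA0259160 was 2-fold lower with Zn in all 4 pairs, of 197 members compared, against 0.158% of all genes, and 0 members were higher in all 4, against 0.0192% of all genes. By any amount, 2 members were higher and 6 lower in all 4 pairs, against 3.66% and 2.81% of all genes. Without the pair that holds N0_Cd_Zn, 4 members were higher and 1 lower in the other pairs, against 0.866% and 0.844% of all genes. The log2 ratio of TRIAE_CS42_1DS_TGACv1_081241_AA0259160 averaged -3.12 (SD 0.51 over the 4 pairs). TRIAE_CS42_4DL_TGACv1_344693_AA1149010, the highest ratio in both N2_Cd_Zn against N2_Cd and N0_Zn against N0, had 71.6 CPM in N2_Cd_Zn and 111 CPM in N2_Zn, against 7.40 CPM in N2_Cd and 5.13 CPM in N2. At N0 it had 5.58 CPM in N0_Cd_Zn and 17.4 CPM in N0_Zn, against 5.00 CPM in N0_Cd and 1.32 CPM in N0. Its ratio in N0_Cd_Zn against N0_Cd was under 2-fold, so it was not 2-fold higher in all 4 pairs.

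N2 was set against N0 in 4 pairs. In N2 against N0, 19 members (9.69%) were higher and 36 (18.4%) lower, against 13.7% and 15.8% of all genes. On plain library totals 36 were higher and 31 lower, so the balance in this pair depended on the scaling. In N2_Cd against N0_Cd, 16 of 199 were higher and 24 lower, against 10.8% and 11% of all genes. In N2_Zn against N0_Zn, 44 members (22.2%) were higher and 41 (20.7%) lower, against 21.8% and 20.6% of all genes. In N2_Cd_Zn against N0_Cd_Zn, 42 of 199 were higher and 42 lower, against 19.9% and 18.4% of all genes. The pairs with Zn had about as many members apart as all genes did.

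In all 4 Ca/K pairs, 2 members were 2-fold higher and 2 were 2-fold lower, against 1.95% and 1.44% of all genes, which are near the members' own 1.03% each way. Counting any size of ratio, 28 were higher and 25 lower in all 4 pairs, or 14.4% and 12.8%, against 13.8% and 17.4% of all genes. Without the pair that holds N0_Cd_Zn, 3 members were 2-fold higher and 16 lower in the other pairs, or 1.54% and 8.21%, against 4.3% and 6.64% of all genes. Without the pair that holds N2_Cd, 6 were higher and 6 lower, against 3.32% and 2.15% of all genes.

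One of the 2 higher members was TRIAE_CS42_5DL_TGACv1_433502_AA1414930, with a mean log2 ratio of 3.20 (SD 0.85 over the 4 pairs). The other was TRIAE_CS42_4DS_TGACv1_361591_AA1170510, with 9.15, 17.7, 77.1 and 22.1 CPM in N2_Cd_Zn, N2_Cd, N2_Zn and N2 and 2.70, 4.96, 0.673 and 5.29 CPM in N0_Cd_Zn, N0_Cd, N0_Zn and N0. The groups did not overlap, but the ratio was much larger between N2_Zn and N0_Zn than in the other pairs, and the mean log2 ratio of 2.95 had an SD of 2.36.

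One of the 2 lower members was TRIAE_CS42_4DL_TGACv1_343264_AA1132410, with 9.75, 2.99, 5.04 and 4.05 CPM in N2_Cd_Zn, N2_Cd, N2_Zn and N2 and 19.6, 13.7, 52.0 and 61.8 CPM in N0_Cd_Zn, N0_Cd, N0_Zn and N0. Its mean log2 ratio was -2.72 (SD 1.41), and the smallest, in N2_Cd_Zn against N0_Cd_Zn, lay at the 2-fold limit. TRIAE_CS42_5DL_TGACv1_433390_AA1411820 was the other, with 10.3, 13.0, 5.36 and 7.94 CPM in N2_Cd_Zn, N2_Cd, N2_Zn and N2 and 22.6, 35.7, 71.1 and 62.5 CPM in N0_Cd_Zn, N0_Cd, N0_Zn and N0. Its mean log2 ratio was -2.43 (SD 1.34), and all N2 libraries lay below all N0 libraries in both genes.

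Both metals together were set against none. In N2_Cd_Zn against N2, 28 members (14.1%) were higher and 20 (10.1%) lower, against 11.7% and 10.7% of all genes. In N0_Cd_Zn against N0, 25 of 199 were higher and 43 lower, against 13% and 14.2% of all genes, and on library totals 32 were higher and 36 lower. Lower members in the N0 pair were 21.6% of those compared, and all D-coded genes compared stood at 17.5%.

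**Figure D3:**
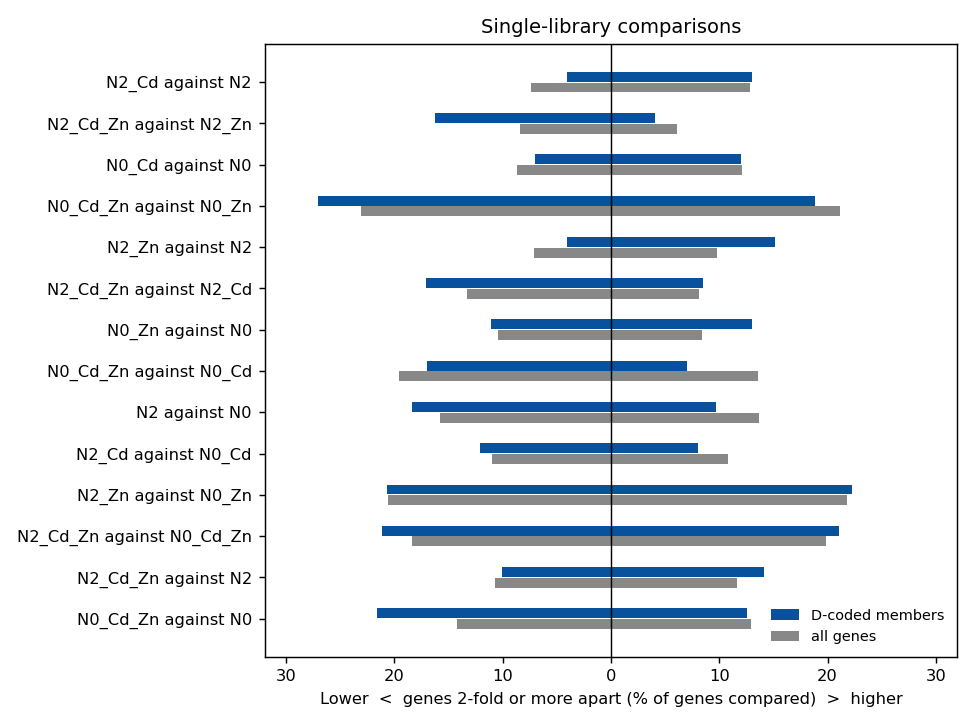
Percentage of genes 2-fold or more apart in each of 14 single-library comparisons, higher to the right and lower to the left of 0, for the members (blue) and for all genes compared (grey). In N2_Cd_Zn against N2_Zn 16.2% of members lie on the lower side, against 8.44% of all genes. All D-coded genes compared, not drawn, stand at 15.9% there.

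Members 2-fold apart at both Ca/K levels went mostly the same way for 1 metal alone. They went mostly opposite ways where N2_Cd_Zn and N0_Cd_Zn were among the libraries, and the parts of these 2 cannot be told apart here. For Cd without added Zn, 5 members were opposite at N2 and N0 and 13 the same, so that 27.8% were opposite, against 9.84% of the genes of mean 5 CPM or more that were 2-fold apart at both levels. For Zn without Cd, 8 were opposite and 18 the same, or 30.8% opposite against 27.4%. For Cd with Zn, 25 were opposite and 3 the same, or 89.3% against 85.0%. For Zn with Cd the counts were 12 and 8, or 60% against 63.4%, and for both metals against none 21 and 11, or 65.6% against 88.1%. The larger gaps between members and all genes rest on 18 and 32 members, and the shares over all genes were computed after the members' counts were seen. The pairs are 2 libraries each, and the differences between N2 and N0 were not tested beyond the interactions above.

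The last comparison set each member that swung 4-fold or more beside the A-coded and B-coded genes of mean 5 CPM or more, 25732 in number. For each such gene the log2 ratio of the member's (CPM + 0.5) to its own was taken in the 8 libraries, and the gene with the lowest SD of that ratio, the most constant ratio, was called the nearest. For 37 of the 84 members, 44.0%, the nearest gene lay on the same homoeologous group, against 14.6% of all candidate genes. Over all 200 members it was 62, or 31.0%, against 14.7%. Of the 84, for 28, or 33.3%, it lay on the same arm too, against 7.56%. Likeness of this kind is a description over 8 shared libraries, and says nothing of shared sequence or control.

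The share depended on the libraries. Without N0 it was 22 of 84, or 26.2%, and without each of the other libraries in turn it was 28 to 37. With the highest Pearson correlation in place of the lowest SD it was 25, or 29.8%. By the size of the swing, 24 of the 45 members that swung 10-fold or more, 53.3%, and 13 of the 39 that swung 4-fold to 10-fold, 33.3%, had their nearest gene on the same group. A-coded genes of the top 200 matched to B-coded genes gave 34 of 81, or 42.0%, and B-coded genes matched to A-coded genes 26 of 79, or 32.9%. These splits and the leave-outs were added after the data were seen. Matched to 1 subgenome in the same way, the 84 D-coded members gave 31, or 36.9%, with A-coded genes alone. With B-coded genes alone they gave 29, or 34.5%. Both lay between the values for the 81 A-coded and 79 B-coded genes.

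**Figure D4:**
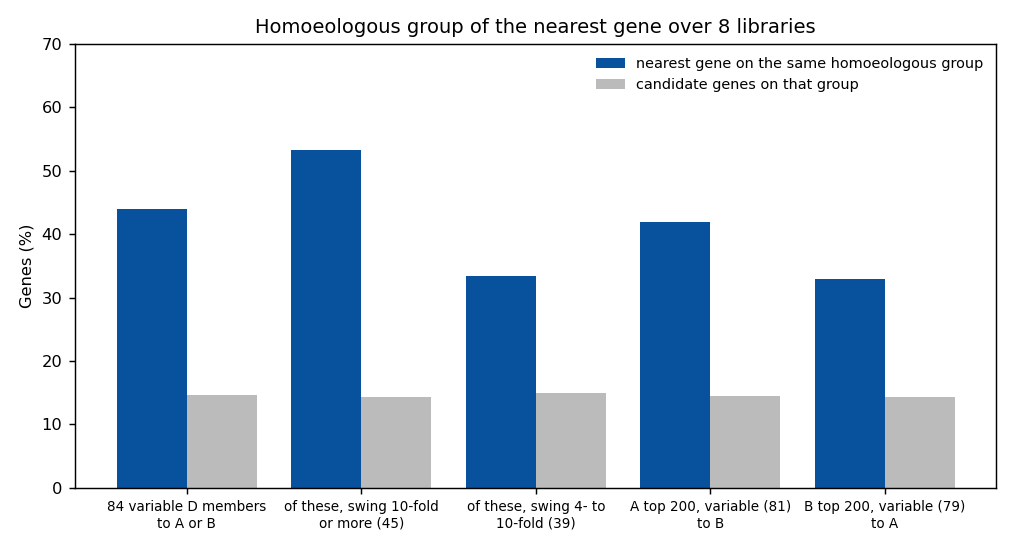
Percentage of genes whose nearest gene over 8 libraries lies on the same homoeologous group (blue), beside the percentage of candidate genes on that group (grey); numbers of genes are given under the bars. The 84 members that swung 4-fold or more stand at 44.0% against 14.6%. Such genes of the A-coded and B-coded top 200 (81 and 79), searched in 1 subgenome only, stand at 42.0% and 32.9%. Over all 200 members, not drawn, the share was 31.0%.

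The most constant ratio was that of TRIAE_CS42_7DL_TGACv1_604456_AA1998280 to TRIAE_CS42_7BL_TGACv1_578233_AA1891510, with an SD of 0.053, while the next candidate had 0.192. The D-coded member had 50.1, 71.8, 85.3 and 59.97 CPM in N2_Cd_Zn, N2_Cd, N2_Zn and N2 and 48.5, 60.6, 25.2 and 19.1 CPM in N0_Cd_Zn, N0_Cd, N0_Zn and N0. Per length, its FPKM was 54.4 to 61.6% of that of the B-coded gene in each library. Both genes lie on the long arm of their group.

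TRIAE_CS42_5DL_TGACv1_435811_AA1455200 and TRIAE_CS42_5BL_TGACv1_404186_AA1289040 followed, with an SD of 0.057. The D-coded member had 17.1, 34.0, 32.9 and 27.5 CPM in N2_Cd_Zn, N2_Cd, N2_Zn and N2 and 38.6, 25.2, 6.89 and 15.7 CPM in N0_Cd_Zn, N0_Cd, N0_Zn and N0. Its FPKM was 37.3 to 41.8% of that of the B-coded gene. The next 3 members by this measure had their nearest genes on other groups: TRIAE_CS42_5DL_TGACv1_433377_AA1411470 with TRIAE_CS42_6AS_TGACv1_487008_AA1567410 (SD 0.088), TRIAE_CS42_3DL_TGACv1_249850_AA0857390 with TRIAE_CS42_7AS_TGACv1_569900_AA1826610 (SD 0.090), and TRIAE_CS42_5DL_TGACv1_433462_AA1413770 with TRIAE_CS42_6BL_TGACv1_499736_AA1590540 (SD 0.091). A low SD was therefore found both on the same group and on other groups. Of the 39 members with an SD under 0.2, 17 had their nearest gene on the same group, against 14.6% of all candidate genes.

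The 4 members with the largest swings, picked out after their values were seen, each had a nearest gene on the same group and arm, but at looser ratios. The nearest to TRIAE_CS42_4DL_TGACv1_343786_AA1139630 was TRIAE_CS42_4BL_TGACv1_320438_AA1039080 (SD 0.421), with 0.1000, 0.874, 0.458 and 16.8 CPM in N2_Cd_Zn, N2_Cd, N2_Zn and N2 and 27.7, 0.560, 0.0396 and 14.9 CPM in N0_Cd_Zn, N0_Cd, N0_Zn and N0. It was high in the same 3 libraries as the member. The nearest to TRIAE_CS42_1DS_TGACv1_080112_AA0239670 was TRIAE_CS42_1AS_TGACv1_021675_AA0082050 (SD 0.567), with 8.69 CPM in N2_Cd and 60.1 CPM in N0_Cd and 0.0465 to 4.10 CPM in the others.

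For TRIAE_CS42_6DL_TGACv1_527675_AA1707210 the nearest was TRIAE_CS42_6AL_TGACv1_471983_AA1516640 (SD 1.14), and for TRIAE_CS42_6DS_TGACv1_545065_AA1749890 it was TRIAE_CS42_6BS_TGACv1_517953_AA1677300 (SD 1.13). In these the FPKM of the member ran from 10.6 to 244% of that of the 6AL gene and from 7.58 to 413% of that of the 6BS gene. The ratio was thus far from constant over the libraries.

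**Figure D5:**
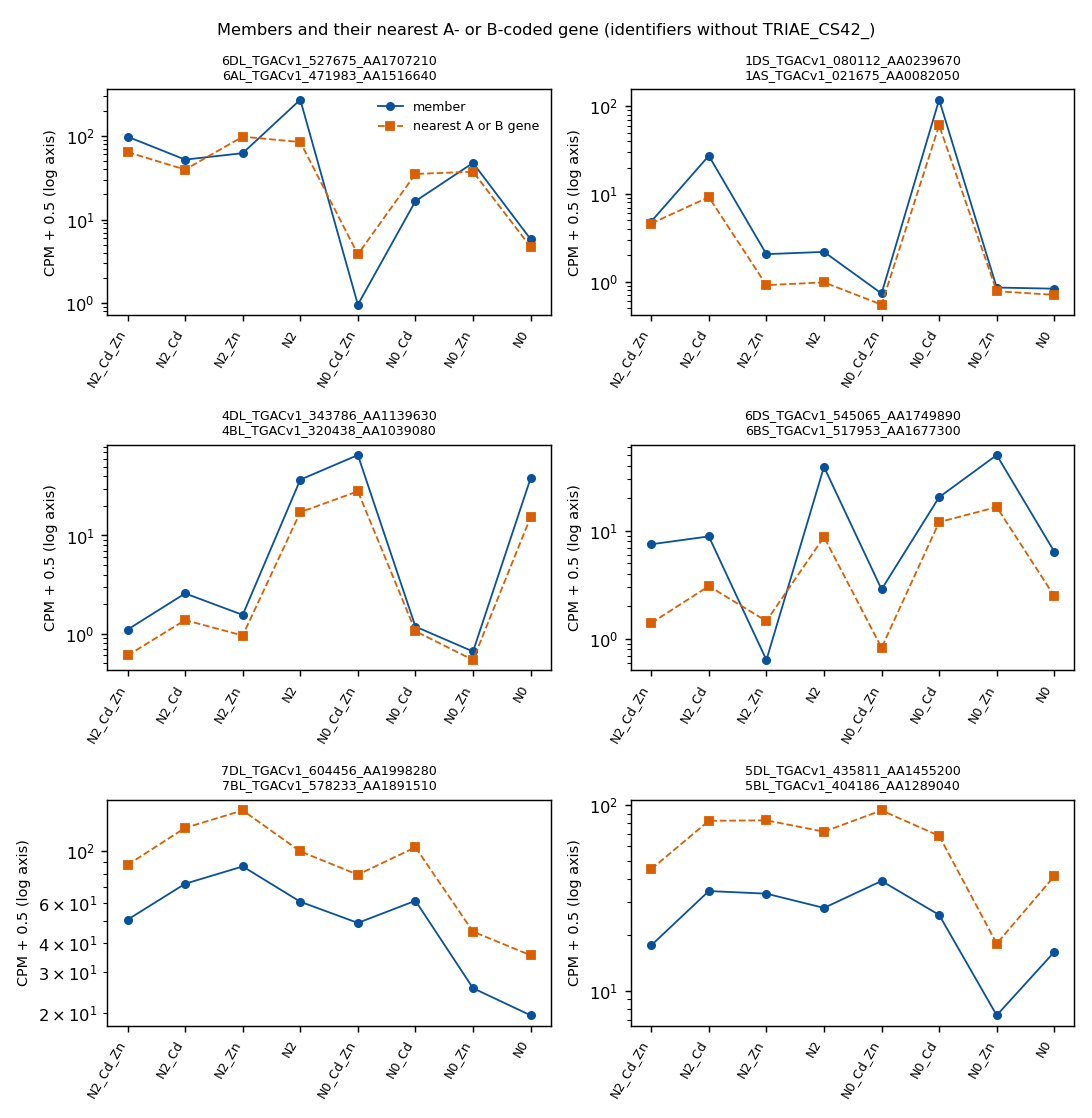
CPM + 0.5 (log axis) in the 8 libraries of 6 members (blue circles) and of the A-coded or B-coded gene with the most constant ratio to each (orange squares). The lower panels show the SDs of 0.053 and 0.057, where the lines run parallel, and the upper panels the 4 members with the largest swings.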

How the data were processed

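The authors deposited a table of read counts per gene and a table of FPKM (fragments scaled by gene length and library size) with 1 column for each of the 8 treatments. Per the submitters' processing notes, the tools named include Bowtie2 2.0.6 and TopHat2 2.0.12. The sources used here name no counter or annotation, nor how replicate samples became 1 column. The protocol in the labels names an Illumina library kit, while the series' design text names another sequencing method.

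From the deposited counts, CPM was computed over library totals. edgeR 4.0.16 (TMM, filterByExpr with a minimum count of 10, robust quasi-likelihood fit) and DESeq2 1.42.0 were run in R 4.3.3, and the rest in Python 3.11.15. The models use the remaining interactions of the treatments as spread, so p-values do not measure the spread between plants. Offsets were 0.5 CPM for single libraries and a prior count of 2 for pairs. Intervals are 95% binomial and cover counting error only. The edgeR fit, the pair counts and the nearest-gene search were tested on simulated data.

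Members named are the 10 highest, those at the border of the 200, those 2-fold apart in all 4 pairs of a factor, the extremes of the pairs and of the libraries, the steadiest and the most variable, and the 5 with the most constant ratio to another gene. Not every extreme is printed. The members, lists and tests were chosen with earlier results of these data known. Alternatives were other scalings, filters, tools, offsets and leaving out each library.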

Additional observations from a re-analysis of the deposited data

Results flagged for a closer look

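In each of 5 comparisons, the widest case is given of a member whose ratio went opposite ways at N2 and N0. Ratios are to the matched library without the metal (log2 of TMM-scaled CPM with a prior count of 2). Each case rests on 1 library per treatment, and the difference was not tested for any of these pairs.

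For Cd without added Zn, TRIAE_CS42_6DL_TGACv1_527675_AA1707210 had a log2 ratio of -2.19 at N2 and 1.54 at N0, a difference of -3.74. For Cd with Zn, TRIAE_CS42_6DS_TGACv1_545065_AA1749890 had 4.90 at N2 and -4.61 at N0, a difference of 9.52. For Zn without Cd the same gene had -7.23 at N2 and 3.20 at N0, a difference of -10.43. N2_Zn, with 3 reads of it, enters both of its N2 ratios. For Zn with Cd, TRIAE_CS42_4DL_TGACv1_343786_AA1139630 had -1.71 at N2 and 6.33 at N0, a difference of -8.04. For both metals against none, TRIAE_CS42_5DL_TGACv1_433430_AA1412970 had 2.81 at N2 and -1.62 at N0, a difference of 4.43.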

How the results depend on the processing

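Replicates could not be paired because each treatment has 1 library and the labels give no replicate numbers, so libraries were matched by treatment only. Of the summary values recomputed under other settings, 236 stayed within 1.5 times their first value and 16 did not. The 236 include values that were 0 at first and 0 again, such as the members called for Cd. Members 2-fold apart in the same direction in all 4 Cd pairs are another such case. Since 0 against 0 was counted as unchanged, the 236 do not measure how steady the nonzero values were. Of the counts of members at an unadjusted p under 0.05, 36 stayed within that limit and 30 did not. DESeq2 called 2 members for Zn, 31 for Ca/K and 5 for Cd by Zn, where edgeR called 0 of each. With each library left out in turn, edgeR called 0 to 24 members for Ca/K, 24 without N0_Cd_Zn and 0 in the other 7 cases, and 0 to 8 for Cd by Zn, 8 without N2_Cd_Zn and 0 otherwise. On library totals the members higher in N2_Cd_Zn against N2_Zn numbered 13 and those higher in N2 against N0 numbered 36. On log2(FPKM + 1), those lower in N2_Cd_Zn against N2_Zn numbered 20 and those higher in N0_Zn against N0 numbered 16. Members lower in all 4 Ca/K pairs numbered 1 on library totals and 1 on log2(FPKM + 1). In 3 pairs, without that of N0_Cd_Zn, 4 members were higher with Zn and 16 lower with Ca/K; without that of N2_Cd, 6 were higher and 6 lower with Ca/K. The nearest gene lay on the same group for 22 to 37 members over the leave-outs. The cause of these moves was not tested. The 4-fold swing count was 83 on TMM-scaled CPM and 68 to 84 over the leave-outs.

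Mean levels ran from about 16 CPM upward, and 159 members had 5 CPM or more in every library. Counting error is therefore small for most members, though levels in single libraries went down to 0.137 CPM, in N2_Zn. With 1 library per treatment, the unknown spread between plants limits the comparisons. Members with 10 reads or fewer in a library have wide counting intervals there.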
